A study of Mus musculus with 90 samples.

Results

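YUMM2.1 cells, a mouse melanoma line, were compared after 2 weeks of continuous culture with 50 IU/mL IFNγ and after 2 weeks of parallel culture without it. The comparison used 6 of the 90 samples of the series, 3 per group, and the sample labels set each sample's group. The study followed YUMM2.1 and CT26, a mouse colon carcinoma line, through chronic IFNγ exposure and asked how prolonged exposure changes tumour cells. RNA was profiled by digital gene expression, a bulk assay that reads only the 3′ end of each transcript, so that longer transcripts do not gain counts. The IFNγ group received 50 IU/mL IFNγ, and the control group received bovine serum albumin (BSA, 0 IU/mL IFNγ). Both groups grew in RPMI-1640 medium, were replated before harvest and were collected at 0 h, that is, with no timed rechallenge. The labels describe triplicate experiments and do not say whether these were separate long-term cultures. The p-values therefore rest on a spread between replicate samples that may be in part technical. For this comparison that spread was estimated over all 45 YUMM2.1 samples together, not over these 6 alone.

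IFNγ binds the receptor chains Ifngr1 and Ifngr2, whose kinases Jak1 and Jak2 pass the signal to transcription factors that bind gamma-activated sites (GAS). The factor Irf1, itself induced by the pathway, binds interferon-stimulated response elements (ISRE). Known targets in tumour cells include the machinery that cuts, transports and presents peptides on MHC class I, GTPases of cell-autonomous defence, and feedback regulators of the pathway.

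Irf1, Psmb8, Igtp, Gbp2 and B2m were all higher in the IFNγ group, and their promoter windows are printed because each holds a match to 1 of the 2 motifs that the pathway's factors are known to bind. They were chosen after the matches were seen. Each window is RefSeq sequence of GRCm38.p6, the build that mm10 names, from 250 bases before the start site to 50 bases after it, on the strand of the gene. Capitals mark matches on either strand to the GAS letters TTCNNNGAA, in which N is any base, or to the ISRE core, which is GAAA, any 2 bases and GAAA again. A GAS match reads the same on both strands. The windows lie at chr11:53769764-53770063 (+) for Irf1, chr17:34197945-34198244 (+) for Psmb8, chr11:58199306-58199605 (+) for Igtp, chr3:142620413-142620712 (+) for Gbp2 and chr2:122147437-122147736 (+) for B2m.
Irf1: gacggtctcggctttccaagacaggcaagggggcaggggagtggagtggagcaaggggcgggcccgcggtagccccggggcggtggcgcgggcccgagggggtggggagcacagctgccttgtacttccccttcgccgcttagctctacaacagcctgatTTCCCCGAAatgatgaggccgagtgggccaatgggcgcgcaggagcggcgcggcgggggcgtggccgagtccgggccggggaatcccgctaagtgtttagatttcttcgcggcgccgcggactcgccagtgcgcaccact
Psmb8: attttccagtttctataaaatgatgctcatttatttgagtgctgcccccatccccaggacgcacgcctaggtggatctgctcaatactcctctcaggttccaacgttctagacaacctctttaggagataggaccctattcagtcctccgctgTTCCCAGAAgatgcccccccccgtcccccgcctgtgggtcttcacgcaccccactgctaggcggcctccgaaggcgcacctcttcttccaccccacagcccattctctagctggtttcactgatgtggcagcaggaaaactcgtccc
Igtp: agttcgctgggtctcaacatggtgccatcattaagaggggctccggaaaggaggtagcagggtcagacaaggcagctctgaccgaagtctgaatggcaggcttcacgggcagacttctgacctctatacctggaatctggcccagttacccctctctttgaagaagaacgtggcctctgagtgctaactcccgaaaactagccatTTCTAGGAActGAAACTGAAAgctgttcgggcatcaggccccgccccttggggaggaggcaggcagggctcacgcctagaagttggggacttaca
Gbp2: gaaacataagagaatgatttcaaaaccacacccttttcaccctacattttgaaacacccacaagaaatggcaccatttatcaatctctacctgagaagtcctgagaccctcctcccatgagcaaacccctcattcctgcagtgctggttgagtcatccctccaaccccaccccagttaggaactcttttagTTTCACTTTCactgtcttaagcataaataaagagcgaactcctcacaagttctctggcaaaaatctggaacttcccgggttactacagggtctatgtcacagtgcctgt
B2m: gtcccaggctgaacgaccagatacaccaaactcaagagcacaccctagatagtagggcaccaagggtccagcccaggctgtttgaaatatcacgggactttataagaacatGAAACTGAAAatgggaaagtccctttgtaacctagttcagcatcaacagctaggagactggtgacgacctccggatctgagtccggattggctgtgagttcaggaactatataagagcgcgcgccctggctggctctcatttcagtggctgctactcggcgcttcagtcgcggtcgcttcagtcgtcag
The first base of the GAS match lies 90 bases before the start site in Irf1, 97 in Psmb8 and 45 in Igtp. Igtp also holds an ISRE core 34 bases before its start, so both motifs stand close together in its window. The ISRE core of Gbp2 begins 59 bases before the start and that of B2m 139 bases before it. A second RefSeq start of Irf1 has a window without a match, and the windows of Cd274, Tap1, Psmb9, Tapbp and Dtx3l, all called higher too, hold neither set of letters.

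Over the genes called higher below, RefSeq windows were found for 58 of 86, and 29 of these (50%) had at least 1 window with either motif. Among all 27025 genes with a window the share was 12.9%. These include genes that were not tested here, so they are not a matched background. By single motif, 37.9% of the 58 genes held the ISRE core and 27.6% the GAS letters, against 3.99% and 9.55% of all genes. Of the 21 genes called lower, 15 had a window, 2 held the GAS letters and 0 the ISRE core. These shares describe letters in short windows and show neither binding nor its absence.

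The 6 libraries held 994733 to 2140588 counts, of which the controls held at most 1270700 and the deepest library was in the IFNγ group. Mitochondrial genes took 6.09% to 7.08% of counts. Pearson's r of log2 levels across 5130 genes, which are not independent replicates, was 0.968 to 0.971 among controls, 0.953 to 0.977 among IFNγ samples and 0.928 to 0.955 between the groups. The label of a melanoma was checked against 21 melanocyte lineage genes, of which 10 had a count in the controls and 14 in the IFNγ samples. Their summed level was 230 to 255 CPM (counts scaled to all counts of the library, for these marker sums) in controls and 262 to 279.9 CPM in IFNγ samples. Sox10, S100b, Gpnmb and Erbb3 carried this signal, while Tyrp1 and Mlana had 0 counts in all 6 libraries and Mitf, Tyr, Dct and Pmel had at most 5 in any of them. Colon epithelial markers summed to at most 3.27 CPM and leukocyte markers to 3.66 to 10.9 CPM, with 0 of the 17 leukocyte markers above 10 CPM in either group. Of 12 endothelial and fibroblast markers, Pecam1 alone exceeded 10 CPM and gave nearly all of the list's 345 to 378 CPM in controls and 296 to 316 CPM in IFNγ samples, and Cdh5, Kdr, Tek, Dcn, Lum and Col1a1 had 0 counts. For reference, in 2-week CT26 controls the melanocyte list summed to 44.3 to 48.3 CPM and the colon epithelial list to 60.4 to 68.3 CPM. There the leukocyte list gave 0 to 3.45 CPM and the endothelial and fibroblast list 278 to 318 CPM. In bulk samples like these, a change in the number of cells that use a gene and a change per cell cannot be told apart.

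After 2 weeks with IFNγ, the largest changes were rises of interferon-inducible genes from very low control levels. Of 9589 genes tested, 107 were called at an adjusted p below 0.05 (1.12%): 86 were higher (0.897%) and 21 lower (0.219%). Levels of genes and of summed copies are from here on in CPM of the tested genes after TMM scaling, a scale on which values run a little higher than in the marker sums, and p-values of the quasi-likelihood test of edgeR were adjusted by the method of Benjamini and Hochberg. Calls were made from the same values, so a lack of overlap between groups describes the called genes and is not separate support. In 106 of the 107 the 3 IFNγ samples did not overlap the 3 controls, against 14.6% of all genes tested. The exception was Ifi203, a nucleic acid sensor of the PYHIN family, with 2.43, 2.04 and 6.01 CPM in controls and 18.3, 4.49 and 17.9 CPM in IFNγ samples, and its call was lost without control replicate 1 or 2 or IFNγ replicate 1 or 3 (adjusted p at most 0.0887). The median log2 fold change was 3.27 over the higher genes and -0.61 over the lower genes, beside 0.01 over all genes tested. Of the higher genes 66 rose over 4-fold, while 0 of the lower genes fell over 2-fold. The groups of calls also differed in abundance, since the median control level was 3.32 CPM among the higher genes and 246 CPM among the lower genes.

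**Figure D1:**
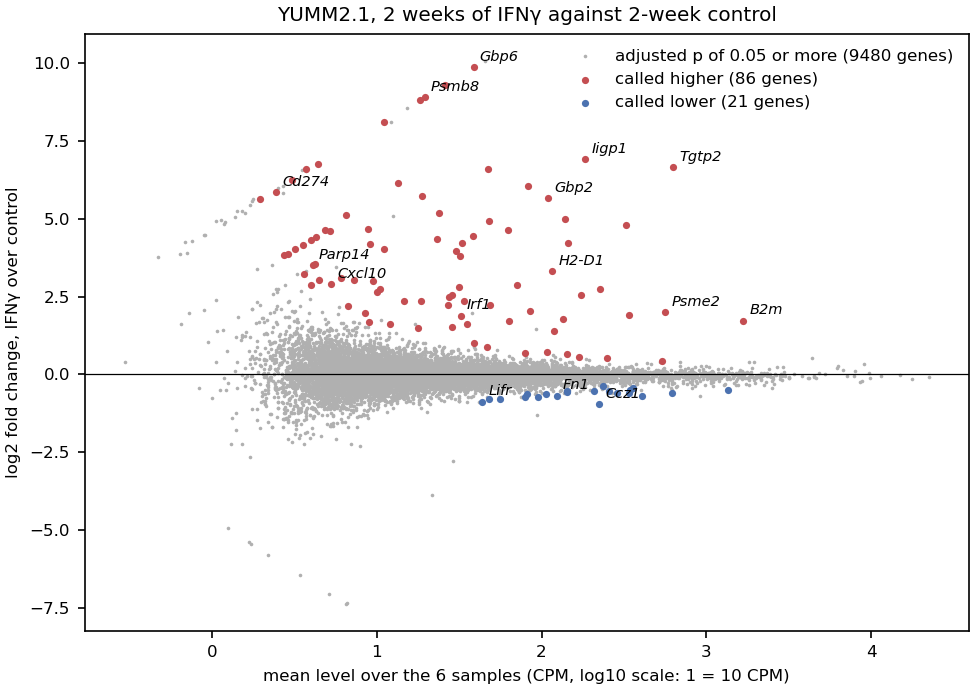
Log2 fold change of IFNγ over control (vertical axis) against the mean level over the 6 samples in CPM on a log10 scale (horizontal axis), 1 point per gene tested with a count in these 6 samples (2 genes without one are left out). Red points are the 86 genes called higher, blue points the 21 called lower and grey points the rest; the higher genes reach far above 0 at low levels, whereas the lower genes stay between -0.94 and -0.38.

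Many controls were at or near 0. For the 10 higher genes with no count in any control the fold is given as a lower bound against 3 counts over the control group, and for the 19 with 1 to 3 control counts the ratio is given with its exact 95% counting interval. With those 10 genes at their bounds, the median log2 fold change of the higher genes was 3.03. Intervals cover counting error only. Bounds allow for counting error of the controls alone and take the IFNγ counts as exact, so they are not confidence limits.

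Upstream in the pathway, neither receptor chain and neither kinase of the IFNγ receptor was called. The receptor chain Ifngr1 stood at 33.2, 20.4 and 19.8 CPM in controls and 13.1, 31.5 and 20.8 CPM in IFNγ samples, and Ifngr2 at 8.89, 4.09 and 5.16 and 11.1, 8.09 and 5.82 CPM. The kinases Jak1 and Jak2 had log2 fold changes of -0.22 ± 0.32 (SE, as after each log2 fold change) and 0.60 ± 0.59 and were not called. Stat2, a factor of type I interferon signalling, had a log2 fold change of 1.02 ± 0.67 and was not called.

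Of 11 tested feedback inhibitors of JAK-STAT signalling, 1 was called higher and 0 lower. That gene was Parp14, an ADP-ribosyltransferase, which held 0.809, 0 and 0.859 CPM in controls and 6.53, 8.09 and 8.24 CPM in IFNγ samples. Its groups did not overlap, the ratio over 2 control counts was 12.9 (95% counting interval 3.33 to 111) and the log2 fold change was 3.52 ± 0.75 (edgeR, adjusted p = 0.00408). DESeq2 gave an adjusted p of 0.0645 for Parp14. Its control means were 1.60 CPM at 0 weeks, 2.32 at 1 week and 0.69 at 3 weeks, beside 0.56 at 2 weeks. Against the 0-week controls its log2 fold change was 2.15 and was still called. The 1-week log2 fold change was 1.29 and was not called, and that of 3 weeks was 3.06 and was called. Socs1, the inhibitor that binds activated JAK kinases, stood at 5.66, 9.2 and 6.01 CPM and 5.88, 9.89 and 8.72 CPM, a log2 fold change of 0.24 ± 0.46. Socs3, Ptpn2 and Pias1 were likewise not called.

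Among 6 tested factors of the IRF group and their relatives, Irf1 and the class I transactivator Nlrc5 were called higher. Irf1 rose from 11.3, 21.5 and 8.59 CPM to 50.9, 58.4 and 42.6 CPM, with no overlap and a log2 fold change of 1.89 ± 0.23 (edgeR, adjusted p = 4.38e-08). Nlrc5 had no control count and held 13.7, 7.19 and 5.33 CPM in the IFNγ samples, which made it at least 9.57-fold higher (edgeR, adjusted p = 3.49e-04). Irf9, a partner of Stat2, was not called, at 83.3, 102 and 79.9 CPM and 94.1, 86.3 and 91.1 CPM.

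The proteasome separated by subunit. All 5 tested immunoproteasome genes were called higher, while 0 of 31 tested constitutive proteasome genes were called, beside 1.12% of all genes tested. The immunoproteasome replaces the standard catalytic subunits and trims peptides for MHC class I. Its catalytic subunit Psmb8 had no control count and 40.5, 38.6 and 38.3 CPM in IFNγ samples, at least 44-fold higher (edgeR, adjusted p = 4.52e-12). Psmb9 went from 0, 1.02 and 1.72 CPM to 96, 83.6 and 103 CPM, a ratio of 108 with an interval of 36.9 to 528. Psmb10, already present in controls at 60.6, 50.1 and 41.2 CPM, reached 295, 324 and 276 CPM. Both subunits of the proteasome activator PA28 rose with log2 fold changes of 2.05 ± 0.18 (Psme1) and 2.00 ± 0.12 (Psme2). In contrast, the 31 constitutive genes had a median log2 fold change of 0.05 and ranged from -0.76 to 0.53, and Psmb5, the counterpart of Psmb8, held 130.2, 151 and 134 CPM and 165, 122 and 179.8 CPM.

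Peptide transport and loading followed with 4 of 9 tested genes higher. Tap1, a chain of the peptide transporter, rose from 0, 3.07 and 0.859 CPM to 20.2, 24.3 and 18.4 CPM, a log2 fold change of 4.03 ± 0.64 (edgeR, adjusted p = 2.69e-05). Tap2, its partner, had 1 control count and 4.57, 11.7 and 6.78 CPM in IFNγ samples, with a ratio of 24.4 and an interval of 4.09 to 992, and its adjusted p rose to at most 0.201 without any 1 control or without IFNγ replicate 2 or 3, which ended the call. Tap1 and Psmb9 overlap in the annotation. Tapbp, which bridges the transporter to class I, and Erap1, which trims peptides in the endoplasmic reticulum, had log2 fold changes of 2.48 ± 0.34 and 2.54 ± 0.29. The general chaperones Calr, Canx, Pdia3 and Hspa5 were not called and lay between -0.16 and 0.16 on the log2 scale. Tapbpl, listed with them, was not called either, at 586, 664 and 701 CPM and 647, 649.8 and 709 CPM.

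Of 7 tested MHC class I chains, 4 were called higher. B2m, the light chain of every class I molecule, rose from 802, 722 and 798 CPM to 2764, 2044 and 2875 CPM, a log2 fold change of 1.73 ± 0.17 (edgeR, adjusted p = 7.57e-11). The classical heavy chain H2-D1 rose from 11.3, 30.7 and 22.3 CPM to 215, 210.3 and 205 CPM, with a log2 fold change of 3.32 ± 0.21. The nonclassical chains H2-T22 and H2-M3 had log2 fold changes of 2.86 ± 0.21 and 4.68 ± 0.64. H2-T23, another nonclassical chain, had a log2 fold change of -0.44 ± 0.14 and was not called, although its 563, 457 and 528 CPM in IFNγ samples lay below its 636, 665 and 803 CPM in controls. H2-K1 had no control count and 0, 2.7 and 5.82 CPM in IFNγ samples, was not called, and class I chains share sequence, so reads of H2-K1, H2-D1 and the other heavy chains may be split between them and each of their values is uncertain to that extent.

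MHC class II genes appeared at a few counts in IFNγ samples. H2-Aa, a class II chain, had no control count and 10.5, 4.49 and 3.39 CPM, at least 6.7-fold higher (edgeR, adjusted p = 0.00817), a call lost without control replicate 1 or 3 or IFNγ replicate 1 at adjusted p values of at most 0.0782. The peptide-exchange chain H2-DMb1 rose from 4.04, 0 and 1.72 CPM to 21.6, 18.9 and 11.1 CPM. H2-Eb1 and H2-DMa had ratios of 11.5 (interval 2.93 to 98.9) and 10.8 (2.73 to 93) and were not called. The class II transactivator Ciita had 0 counts in all 6 libraries, and the invariant chain Cd74 had 0 counts in each control and 3, 2 and 4 counts in IFNγ samples, too few to be tested. At these depths a low level of Ciita was not detectable.

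Of the GTPases of cell-autonomous immunity, 7 of 9 tested guanylate-binding proteins and 12 of 15 tested immunity-related GTPases were higher and 0 lower. Gbp2 rose from 4.85, 3.07 and 4.3 CPM to 214, 238 and 194 CPM, a log2 fold change of 5.67 ± 0.23 (edgeR, adjusted p = 6.28e-24). Taken alone, Gbp6 had no control count and 72.5, 98 and 61.5 CPM in IFNγ samples, at least 83-fold higher. It overlaps Gm43302 in the annotation, and the sum of both with Gbp10 rose less, 29.9-fold in means. Gbp3, Gbp4, Gbp7, Gbp8 and Gbp9 had log2 fold changes between 4.35 and 6.04. Gbp11 was not called at 1.31, 6.29 and 1.94 CPM over no control count, and Gbp10 had counts in 1 library of each group.

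Iigp1, a GTPase that attacks pathogen vacuoles, went from 2.43, 0 and 6.01 CPM to 399.8, 371 and 322 CPM, with a log2 fold change of 6.91 ± 0.28. Igtp (Irgm3) rose from 8.89, 1.02 and 13.7 CPM to 278, 289 and 236 CPM, and the regulatory Irgm1 from 57.4, 55.2 and 64.4 CPM to 398, 426 and 358 CPM. The Igtp controls were spread widely, but neither gene's groups overlapped, and Igtp overlaps Irgm2 in the annotation. Tgtp1 and Tgtp2 are near-identical copies between which the counts split unevenly, so their sum is the safer value: it was 34.0, 16.4 and 51.6 CPM in controls and 1910, 2024 and 1655 CPM in IFNγ samples, or 54.9-fold in means. The giant GTPase pair Gvin1 and Gm4070 had no control count together and 93.4, 88.1 and 67.4 CPM in IFNγ samples, at least 90.9-fold higher. Singly, Gvin1 held its counts in 1 IFNγ library and was not called, whereas Gm4070 was called, but not without any 1 control or IFNγ replicate 2 or 3 (adjusted p at most 0.121). Gbp6, Gm43302 and Gbp10 overlap in the annotation and summed to 4.71 ± 4.17 CPM in controls and 141 ± 23.8 CPM in IFNγ samples (SD, n = 3). That sum, 29.9-fold higher in means, is the safer value for Gbp6. Gm12185 overlaps Tgtp1, and since it was not given whether counting used strand, reads of such overlapping genes cannot be told apart.

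**Figure D2:**
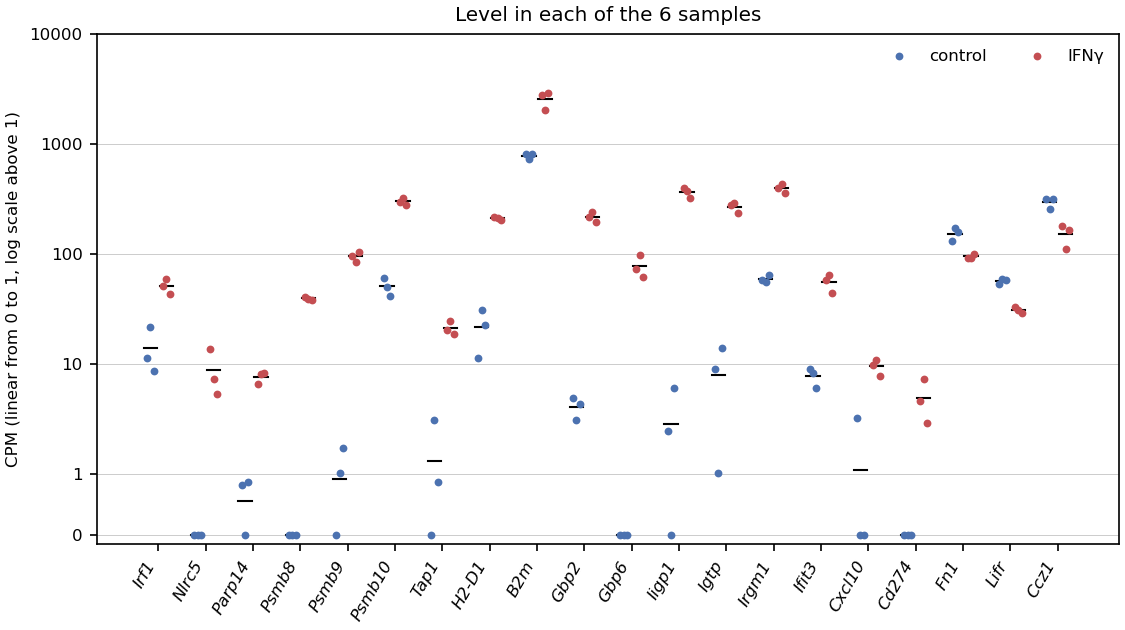
Level of 20 genes in each of the 6 samples in CPM (vertical axis, linear from 0 to 1 and logarithmic above 1), with 3 control samples in blue, 3 IFNγ samples in red and bars at the group means. Nlrc5, Psmb8, Gbp6 and Cd274 lie at 0 in every control, and the last 3 genes, Fn1, Lifr and Ccz1, lie lower in the IFNγ samples by less than 2-fold in the fit.

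Of 7 tested interferon-induced PARP genes, 4 were higher. Beside Parp14 these were Parp9, at 1.62, 3.07 and 3.44 CPM in controls and 18.3, 20.7 and 13.1 CPM in IFNγ samples, its E3 ligase partner Dtx3l and the antiviral Parp12. Dtx3l and Parp12 each had 1 control count, with ratios of 22.3 (interval 3.71 to 907) and 17.9 (2.94 to 737). Neither was called by DESeq2, Dtx3l lost its call without any 1 control or IFNγ replicate 2 or 3, and Parp12 without any 1 of the 6 libraries, with adjusted p values over these and the next alternative of at most 0.441 and 0.511. Against the 0-week controls, whose means were 2.44 and 1.81 CPM beside 0.27 CPM in the 2-week controls, the log2 fold changes were 1.58 and 1.44 and neither was called. Parp10, Parp11 and Zc3hav1 were not called. Parp9 and Dtx3l overlap in the annotation.

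Antiviral effectors responded in part, with 8 of 19 tested genes higher and 0 lower. Rtp4, Ifit3 and the tetherin gene Bst2 rose with log2 fold changes of 3.80 ± 0.29, 2.81 ± 0.28 and 1.77 ± 0.14. Ifit3 stood at 8.89, 8.18 and 6.01 CPM in controls and 58.1, 63.8 and 44.1 CPM in IFNγ samples. Xaf1, at 811, 762 and 847 CPM and 765, 837 and 787 CPM, and Eif2ak2, the kinase PKR, were not called. Mx1, Mx2, Oas1a, Oas2, Oas3 and Rsad2, classic type I interferon genes, had 0 to 2 counts in any library and were not tested. Among nucleic acid sensors, Zbp1 rose from 1.62, 1.02 and 0.859 CPM to 54.2, 52.1 and 32.5 CPM. Ube2l6, the conjugating enzyme for Isg15, rose with a log2 fold change of 2.37 ± 0.29, and Isg15 itself had a ratio of 4.67 (interval 1.06 to 42.6) and was not called.

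Of 9 tested checkpoint and lymphocyte ligands, only Cd274, which encodes PD-L1, was called. Cd274 had no control count and 4.57, 7.19 and 2.91 CPM in IFNγ samples, at least 5.02-fold higher (edgeR, adjusted p = 0.00472). The 0-week controls held 1.09, 2.44 and 1.93 CPM of Cd274, and against them its log2 fold change was 1.41 and was not called. Its control means were 1.27 CPM at 1 week and 0.92 CPM at 3 weeks. Cd274 was not called at other times, with log2 fold changes of 0.30 at 1 week, 2.08 at 3 weeks and 1.14 in naive cells after 24 h. Il15ra, which presents interleukin 15, likewise had no count in the 2-week controls and 3.27, 3.6 and 4.85 CPM in IFNγ samples, and a log2 fold change of 0.92 against the 0-week controls that was not called. Among 8 tested chemokines and cytokines, Cxcl10, a ligand for T cells, was called at 3.23, 0 and 0 CPM in controls and 9.8, 10.8 and 7.75 CPM in IFNγ samples (edgeR, adjusted p = 0.00491). That call was lost without the second or the third control, with adjusted p values of at most 0.0999. The log2 fold changes of Cxcl10 were 1.16 at 1 week and -0.06 at 3 weeks, neither called, and 2.58 in naive cells after 24 h, which was called. Ccl2, Ccl7, Csf1 and Il33 were not called. Casp12 was the single call among 17 death pathway genes and Upp1, a uridine phosphorylase, among 8 metabolism genes, while the restriction factor Ifitm3 and Lgals3bp were called among 7 membrane and Ly6 proteins. Lgals3bp had 1 control count, and its call was lost with DESeq2 and without any 1 control or IFNγ replicate 1 or 2 (adjusted p at most 0.248), and that of Upp1 without control replicate 2 or 3 or IFNγ replicate 1 (at most 0.129). Casp1, an inflammatory caspase, was not called, with a log2 fold change of 0.78 ± 0.21 (edgeR, adjusted p = 0.0517).

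In all, 58 of 180 tested genes of the interferon lists were called, all 58 higher, beside 1.12% of all genes. The lists hold 308 genes, and the rest were not tested. Genes near 0 in controls passed the filter through IFNγ samples, and the lists were written with earlier results of these data known. The share is therefore fixed in part by these choices and describes the lists only. Of the remaining 28 genes that rose, 16 were also called in at least 1 of 3 other IFNγ comparisons of this line (1 week, 3 weeks or 24 h), among them Serpina3f, Ubd, Il18bp, Apol9a and Insl6. The other 12 were called at 2 weeks alone, and they are named here after their values were seen: Sfi1, Gm22514, 2010005H15Rik, Dnmt3a, Mios, Gm7967, Ccdc36, 4930503L19Rik, Gm12222, Il1rap, Nrcam and Prdx5. Of these, Ccdc36 alone passed the threshold in every alternative run. In several of them the 2-week controls stood apart from the other controls. Sfi1, a centrosomal protein, held 0.809, 0 and 0 CPM in 2-week controls and 5.23, 7.19 and 5.82 CPM in IFNγ samples, but its means in the 0-, 1- and 3-week controls were 4.35, 4.08 and 6.06 CPM. Dnmt3a, a DNA methyltransferase, held 0, 0 and 2.58 CPM in 2-week controls and 5.88, 8.09 and 7.27 CPM in IFNγ samples, beside 5.33, 6.40 and 4.25 CPM in the other controls. Against the 0-week controls neither was called, with log2 fold changes of 0.53 and 0.46. Ccdc36 differed from these, with 12.9, 11.2 and 19.8 CPM in 2-week controls, 52.3, 34.2 and 40.7 CPM in 2-week IFNγ samples and means of 12.8 to 24.7 CPM in every other control and IFNγ group of the time course without rechallenge.

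The 21 lower genes changed by less than 2-fold each, and 19 were in no list. Fn1, which encodes the matrix protein fibronectin, fell from 129, 169.7 and 157 CPM to 92.1, 91.7 and 99.8 CPM, a log2 fold change of -0.68 ± 0.12 (edgeR, adjusted p = 4.06e-04). Its groups did not overlap, and it was called in every alternative, the only lower gene of which this held. Fn1 stood at 94.5 ± 4.59 CPM in 2-week IFNγ samples and at 89.3 ± 2.03 CPM in 3-week controls (SD, n = 3). It was not lower with IFNγ at the other chronic times. Its 3-week IFNγ samples held 104, 99.1 and 98.1 CPM, above the 3-week controls, and its 1-week means were 142 CPM with IFNγ and 139 CPM without. After 24 h its mean was 148 CPM, against 164 CPM in 0-week controls. The largest fall among the 21 was that of Ccz1, which acts in endosome maturation, from 314, 256 and 314 CPM to 179.6, 111 and 165 CPM (log2 fold change -0.94 ± 0.20), and it was not called without IFNγ replicate 2 (adjusted p = 0.0997 by edgeR). Ccz1 means were also lower in IFNγ samples at 1 week (176 against 249.6 CPM), 3 weeks (162 against 241 CPM) and 24 h (204 against 292 CPM). Lifr, the receptor for leukaemia inhibitory factor, fell from 53.4, 58.3 and 57.6 CPM to 32.7, 30.6 and 29.1 CPM, its 3-week controls stood at 31.8 ± 5.56 CPM, and its call was lost without IFNγ replicate 3, with no filter on low counts and against the 0-week controls (adjusted p at most 0.144). The glucose transporter Slc2a3, the matrix metalloproteinase Mmp10, the mitotic kinase Plk4 and the haem enzyme Cpox had log2 fold changes of -0.45, -0.78, -0.50 and -0.59. Another 3, Gm42535, Gm44044 and Gm37144, are transcribed regions without an assigned gene, and the last 2 of these overlap Rybp and Mrpl15. The count of lower genes was 4 to 16 when single libraries were left out. It was 11, 13 and 7 without control replicate 1, 2 or 3 and 11 and 4 without IFNγ replicate 1 or 2.

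**Figure D3:**
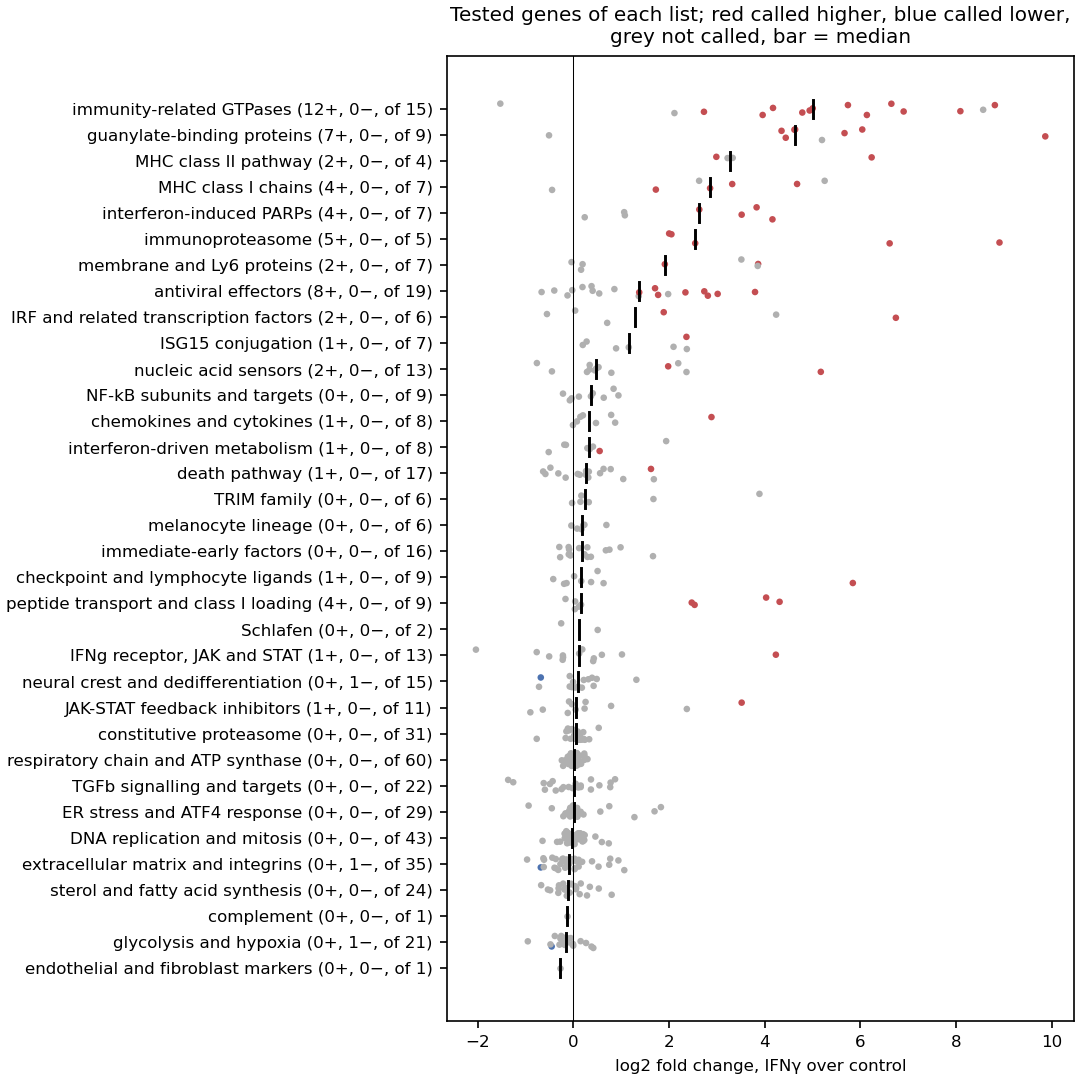
Log2 fold change of IFNγ over control (horizontal axis) for every tested gene of 34 lists, 1 row per list with the number called higher (+), lower (−) and tested. Red and blue points were called higher and lower, grey points were not called and black bars are list medians; the GTPase, MHC class I and II, PARP and immunoproteasome lists have medians of at least 2.55, also with genes at 0 in controls set to their bounds, whereas the medians are 0.05 for the constitutive proteasome, -0.02 for DNA replication and mitosis and -0.16 for glycolysis and hypoxia.

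Outside the interferon lists, 13 lists of other processes with 310 tested genes gave 0 higher and 2 lower calls, Fn1 and Slc2a3. Of all genes tested, 0.897% were called higher and 0.219% lower. At these shares few calls would fall among 310 genes, and fewer in any single list. The counts therefore do not show that these processes were unaffected. At an adjusted p below 0.05, 0 of 43 tested DNA replication and mitosis genes, 0 of 60 respiratory chain genes, 0 of 24 sterol and fatty acid synthesis genes, 0 of 29 ER stress genes, 0 of 22 TGFb genes and 0 of 9 NF-kB genes were called by edgeR. Their median log2 fold changes lay between -0.10 and 0.37, beside 0.01 over all genes tested. Glycolysis and hypoxia genes, with Slc2a3 as the 1 call among 21, had a median of -0.16, and 5 of the 21 were above 0. The melanocyte list had 0 of 6 tested genes called, with Sox10 at 26.7, 17.4 and 12 CPM in controls and 30.7, 37.7 and 24.7 CPM in IFNγ samples. In simulated data of this design the test recovered 37% of genes changed 2-fold and 79% of genes changed 4-fold, and 66.7% and 100% of those above the median level, so modest changes, mainly of low genes, could have been missed.

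The response was then compared with other times of exposure. Of the 86 higher genes, 57 were called higher at 1 week and 57 at 3 weeks, each against its own time-matched control, and 51 at all 3 times. In naive cells given IFNγ for 24 h, 64 of the 86 were called. Over all 9589 genes tested, 63 were called higher at 1 week, 69 at 3 weeks and 82 at 24 h. The median log2 fold change of these 86 genes was 2.26 at 1 week, 3.27 at 2 weeks, 2.39 at 3 weeks and 2.89 at 24 h. Since the genes were chosen at 2 weeks, a higher value there is fixed in part by the choice. Of the 21 lower genes, 0 were called lower at 1 week, 0 at 3 weeks and 2 at 24 h. Over all genes tested, 7, 24 and 3 were called lower at these times. Negative log2 fold changes were found in 16 of the 21 at 1 week, 19 at 3 weeks and 17 at 24 h. Their medians were -0.13, -0.26 and -0.16, beside -0.61 at 2 weeks, where the genes were chosen. The medians over all genes tested were 0.005 at 1 week, 0.002 at 3 weeks and 0.02 at 24 h. Over whole lists, the immunoproteasome stood at a mean log2 CPM of 4.01 ± 0.07 in 2-week controls and 7.41 ± 0.07 in 2-week IFNγ samples, beside 6.98 ± 0.07 at 1 week, 7.16 ± 0.06 at 3 weeks and 7.52 ± 0.19 at 24 h (SD, n = 3). For the guanylate-binding proteins the 2-week IFNγ level was 5.14 ± 0.17, which lay above the 3.85 ± 0.22 of 1 week and the 4.71 ± 0.14 of 3 weeks and below the 5.54 ± 0.25 of naive cells after 24 h, over controls between 1.44 and 2.04.

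**Figure D4:**
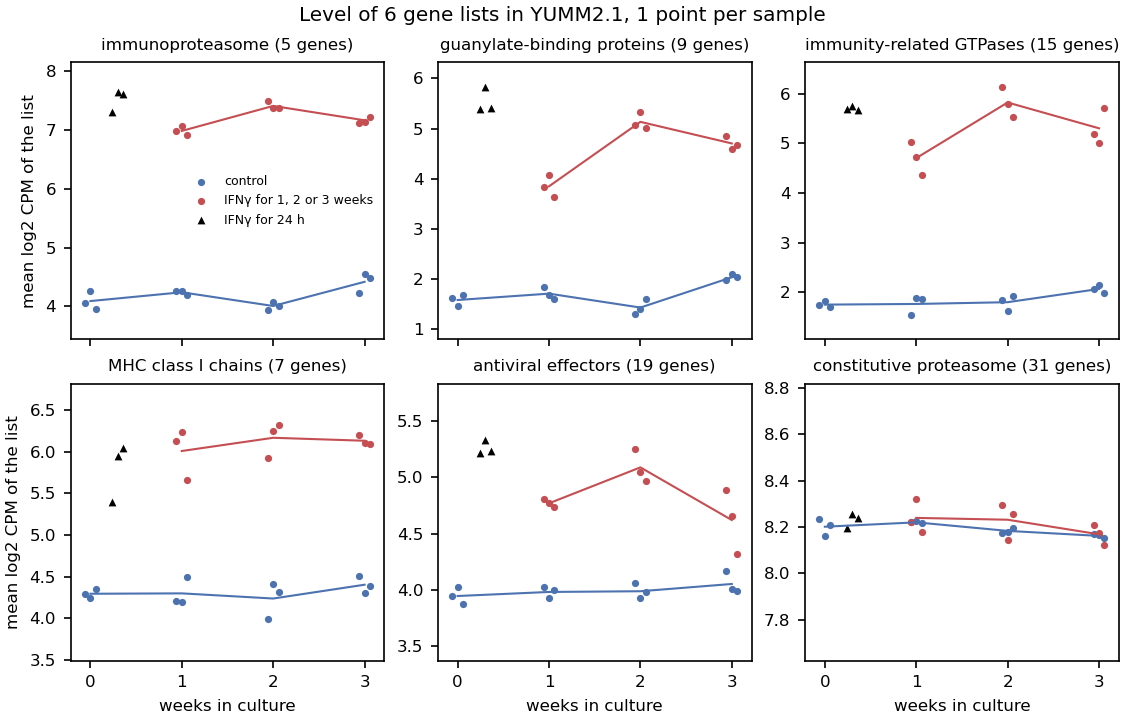
Mean log2 CPM of 6 gene lists (vertical axes, which differ between panels) in YUMM2.1 over weeks in culture (horizontal axis), 1 point per sample and lines through group means. Blue points are controls, red points cells kept in IFNγ for 1, 2 or 3 weeks and black triangles naive cells after 24 h of IFNγ; 5 lists lie above their controls at every time, and the constitutive proteasome lies between 8.17 and 8.24 in all IFNγ group means, beside 8.16 to 8.22 in controls.

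Tested as a difference of responses, 2 genes differed between 2 weeks and 1 week (0.0209%) and 1 gene between 2 weeks and 3 weeks (0.0104%). Gbp2 responded more at 2 weeks than at either time. Its level was 216 ± 21.95 CPM in 2-week, 66.2 ± 23.3 CPM in 1-week and 119.7 ± 8.49 CPM in 3-week IFNγ samples, over controls of 4.07 ± 0.914, 5.47 ± 1.73 and 9.31 ± 0.434 CPM (SD, n = 3). The differences in log2 response were 1.96 ± 0.39 from 1 week (edgeR, adjusted p = 0.0477) and 1.98 ± 0.36 from 3 weeks (adjusted p = 0.0169). Hmox1, the haem oxygenase, was the other gene. It held 75.2, 81.8 and 73.9 CPM in 2-week controls and 95.4, 89.0 and 112 CPM in 2-week IFNγ samples, against 137, 115 and 139 CPM in 1-week controls and 89.5, 73.7 and 55.4 CPM in 1-week IFNγ samples. The difference was 1.15 ± 0.23 (edgeR, adjusted p = 0.0477), with a 2-week log2 fold change of 0.37 ± 0.16 that was not called. The counts for 1 week fell to 0 or 1 under leaving out any of 11 of the 12 libraries, and stayed at 2 without control replicate 2 of 1 week. The count for 3 weeks fell to 0 without control replicate 2 or 3 or IFNγ replicate 2 of 2 weeks, or without any 1 of the 3-week controls.

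Between 2 weeks and 24 h of first exposure, a comparison added after the first results, 0 genes differed (0%) by edgeR and 0 by DESeq2, with 451 at an unadjusted p below 0.05. H2-Aa gives an example of what that test could not resolve, with 0 counts in all 24 h samples, 2.53, 6.10 and 2.13 CPM at 1 week and 10.5, 4.49 and 3.39 CPM at 2 weeks.

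The same 2-week treatment of CT26 was compared in a fit over both lines. Of 85 higher genes tested there, 40 were called higher in CT26, with a median log2 fold change of 1.65 over the 85. Since the genes were chosen in YUMM2.1, that this is below their median there is fixed in part by the choice. In CT26, 0 of the 21 lower genes were called lower, while 20 had negative log2 fold changes, with a median of -0.24 over the 21. Over all 10339 genes of that fit, 76 were called higher and 40 lower in CT26, with a median log2 fold change of 0.003. The difference between the responses was called for 29 of 10339 genes (0.28%), 27 in the direction of YUMM2.1 and 2 in the direction of CT26. In 21 of the 29 the response of CT26 was negative. Of the 29, 8 were called in YUMM2.1 and 25 in CT26 in that fit.

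H2-D1, whose reads may be split with other class I chains in either line, had the smallest adjusted p of the 29. Its log2 response was 3.34 in the melanoma line and 1.18 in the carcinoma line, a difference of 2.16 ± 0.25 (edgeR, adjusted p = 8.12e-09). In CPM of the joint fit, H2-D1 went from between 10.7 and 28.7 to 204, 197 and 198 in YUMM2.1, and from 193, 168 and 166 to 359, 379 and 457 in CT26, so the CT26 controls began near the level that YUMM2.1 reached. H2-M3 had a difference of 3.82 ± 0.74, from 0, 1.91 and 0 CPM to 17.9, 11.8 and 18.8 CPM in YUMM2.1 and from 19.0, 21.8 and 21.5 CPM to 41.9, 29.8 and 40.0 CPM in CT26. Ifi47, an immunity-related GTPase, rose by 4.95 and 2.53, a difference of 2.42 ± 0.55. Irgm1, Psmb10 and Ifitm3 also had larger responses in YUMM2.1, and all 3 had lower levels in every YUMM2.1 control than in every CT26 control. Cnp, an enzyme of myelinating cells, and Bag1, a chaperone cofactor, had lower levels in the IFNγ samples than in the controls of CT26. Cnp held 58.3, 56.4 and 60.6 CPM in YUMM2.1 controls and 60.6, 69.0 and 65.2 CPM in YUMM2.1 IFNγ samples, but 3.96, 2.42 and 5.13 CPM in CT26 controls and 0 in each CT26 IFNγ sample. Bag1 went from 26.1, 27.7 and 27.5 CPM to 56.9, 40.4 and 46.0 CPM in YUMM2.1 and from 46.7, 42.4 and 42.1 CPM to 23.8, 18.5 and 20.6 CPM in CT26. Without IFNγ replicate 3 of CT26 the count of differences was 18.

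**Figure D5:**
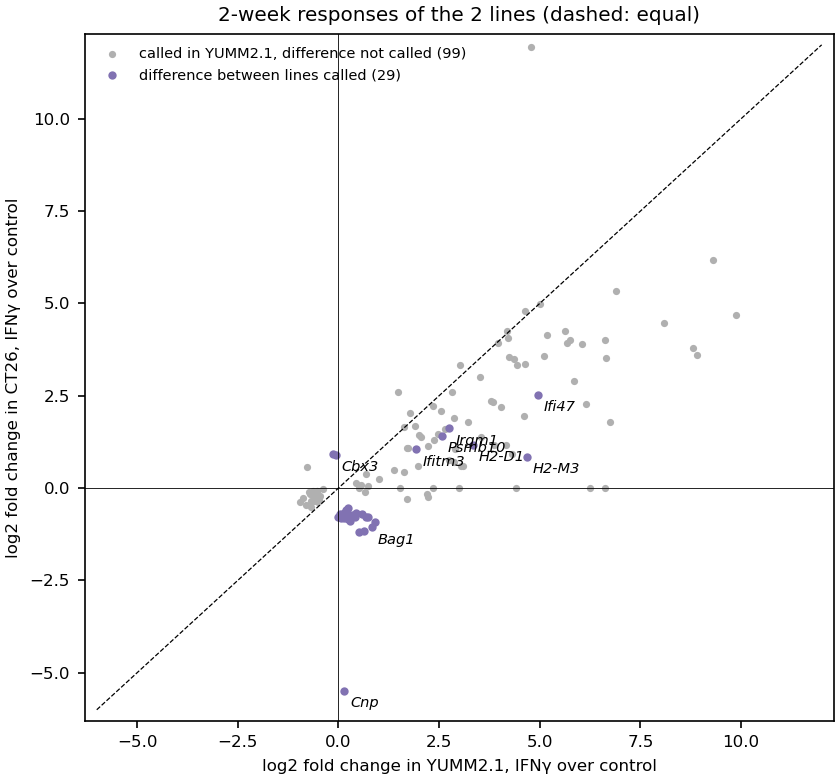
Log2 fold change of IFNγ over control after 2 weeks in CT26 (vertical axis) against YUMM2.1 (horizontal axis), 1 point per gene, with the dashed line at equal responses. Purple points are the 29 genes whose difference was called, at the values of the joint fit, and grey points are 99 other genes called in YUMM2.1, at the YUMM2.1 value of the fit of that line; Cnp lies at 0.15 in YUMM2.1 and -5.48 in CT26.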

How the data were processed

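RNA of YUMM2.1 cells was profiled at its 3′ ends, with 3 samples in each group. The deposited values are counts per gene, in 1 table over all 90 samples, and were made by the authors. The submitters' processing notes name Salmon 0.13.1 and the mm10 build, and whether the values count molecules, reads or rounded estimates was not given in the sources used here. The study discarded some samples without naming them, so all samples were kept.

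Counts were fitted with edgeR 4.0.16 in R 4.3.3 (quasi-likelihood test, TMM scaling, genes kept by filterByExpr) over all YUMM2.1 groups together, which share 1 estimate of the spread. Differences from CT26 came from a fit over both lines. Calls use a Benjamini-Hochberg adjusted p below 0.05. In simulated counts with 100 genes changed 2-fold and 100 changed 4-fold, 37 and 79 of these were recovered. Beside them 7 of 9224 genes were false calls. With no gene changed, 0 of 9272 genes were called. Symbols came from GENCODE M21 and promoter windows from RefSeq GRCm38.p6. Genes were named by a rule on size among calls (15 higher, 15 lower, 5 per difference) and by the gene lists. The comparison, members and lists were chosen with earlier results of these data known. Alternatives were DESeq2 1.42.0, no filter on low counts, other scalings, controls and sets of samples, a replicate block and leaving out each library. The results of 1 gene are not reported here.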

Additional observations from a re-analysis of the deposited data

Results flagged for a closer look

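The 8 results given here are differences between responses to the same contrast, each past a test of the difference itself. In YUMM2.1, the Gbp2 response at 2 weeks exceeded that at 1 week by 1.96 on the log2 scale and that at 3 weeks by 1.98, and the Hmox1 response exceeded that at 1 week by 1.15. The Gbp2 difference from 1 week failed the threshold in 15 of 19 alternatives, that of Hmox1 in 14 of 19 and the Gbp2 difference from 3 weeks in 8 of 19, while their ranges were 1.71 to 2.15, 1.02 to 1.31 and 1.81 to 2.102.

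Between the lines, the response of YUMM2.1 exceeded that of CT26 by 5.63 for Cnp, 3.82 for H2-M3, 2.42 for Ifi47, 2.16 for H2-D1 and 1.89 for Bag1. The differences of Bag1, H2-D1 and H2-M3 passed in all 19 alternatives, that of Cnp failed in 1 and that of Ifi47 in 3. Cnp had 0 counts in the 3 CT26 IFNγ samples, so its fitted value depends on the prior count. Line, mouse strain and culture history cannot be told apart here.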

How the results depend on the processing

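All 107 called genes kept their direction in every alternative run that tested them, and 56 of them (55 higher, 1 lower) passed the threshold in each such run. Some genes with few or no control counts, among them Parp14, Cd274 and Nlrc5, were not tested in the fits of only the groups compared. Of the 86 higher genes, 59 were still called in that fit without a replicate block and 61 with it. The total of 107 became 181 against the 0-week control and ranged from 72 to 94 when single libraries were left out. The 86 higher genes became 65 to 78 without single libraries. The 21 lower genes became 33 with DESeq2, 35 with library totals as the only scaling, 43 in a fit of only the groups compared and 64 against the 0-week control, and 4 to 16 without single libraries. Differences from 1 week (2 genes) became 38 with no filter on low counts, 0 with library totals, 0 without samples under 25% of the median total, 0 in only the groups compared, and 0 to 2 without single libraries. Differences from 3 weeks (1 gene) became 45 with no filter, 5 with DESeq2, 2 in only the groups compared and 0 to 1 without single libraries. Differences from 24 h (0 genes) became 24 with no filter. Differences from CT26 (29 genes) became 63 with DESeq2 and 18 to 32 without single libraries. The cause of these shifts was not tested. Ifngr1, not called, ranged from -0.51 to 0.073 without single libraries, turning positive without control replicate 1 (0.073) or IFNγ replicate 1 (0.04).

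Samples of the same replicate number deviated together with correlations of 0.132, 0.0507 and 0.0466, so the numbers were not taken as pairs. A replicate block gave 104 calls in the fit over all groups. With the replicate block in only the groups compared there were 133 calls, of which 58 were lower, and 1 difference from 1 week, 0 from 3 weeks and 58 from CT26. Counts near 0 in controls limit the precision of the folds.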
